A study of Mus musculus with 6 samples.

Results

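Cycling macrophages of the fracture callus were taken as cell barcodes that carried both a macrophage and a proliferation signature. They were chosen by the measured UMI counts of the genes named next, so that values of these genes are given as a description only. A member held at least 10 unique molecular identifiers (UMIs, 1 per captured transcript) of the complement genes C1qa, C1qb and C1qc together, at least 2 UMIs of Top2a and Mki67 together, fewer than 5 UMIs of the osteoclast fusion and pump genes Atp6v0d2, Ocstamp and Dcstamp, and 0 UMIs of the endothelial gene Cdh5, in a barcode with at least 1000 UMIs and no more than 10% mitochondrial UMIs. Of 46944 barcodes in the 6 libraries, 38001 met the limits on depth and mitochondrial UMIs, 2946 of these were C1q macrophages, and 523 (17.8% of the C1q macrophages) were cycling. The reference cells were the 2023 C1q macrophages without a Top2a or Mki67 UMI, and the 400 with 1 such UMI belonged to neither set.

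Calluses of the fractured femur were dissociated with enzymes at 14 dpf from 12-week-old mice, which the methods describe as male, and the cells were sequenced as droplet-based 3′ libraries. Controls were Piezo1f/f mice, labelled wt, and the knockouts (Piezo1Col2a1) carried Col2CreERT2 and Piezo1f/f, although their sample labels write the gene as Piezo3. Both genotypes were given tamoxifen (75 mg/kg, 5 daily doses starting on day 5), so that the Cre acts in cells that express Col2a1, the cartilage collagen, and not in macrophages. Each group had 3 libraries, which the methods equate with mice, whereas the study's results state other numbers of mice. Values below are given in the order of control replicates 1, 2 and 3 and then knockout replicates 1, 2 and 3. The libraries held 69361237, 77384286, 80735192, 57626530, 103784364 and 102513582 UMIs.

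C1q is the recognition component of the classical complement pathway, and in adult tissues it is made largely by macrophages. Macrophage numbers are kept up by recruited monocytes and by division in place, for which CSF1 acting on its receptor Csf1r is the best known signal. Once a cell passes the D cyclin checkpoint, E2F factors switch on the genes of DNA synthesis, and the DREAM and MuvB complexes, B-MYB and FOXM1 govern the genes of mitosis. Top2a, the topoisomerase that untangles replicated DNA, and Mki67, which coats mitotic chromosomes, both peak late in this sequence.

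One library went against its description before any result was drawn. Xist, the RNA of the inactive X chromosome, reached 630 CPM (UMIs of a gene per 1000000 UMIs of the cells summed) in the members of knockout replicate 3 and was at 0 CPM in the members of the other 5 libraries, whereas the Y-linked genes Ddx3y, Eif2s3y, Kdm5d and Uty were at 0 CPM in knockout replicate 3 only. The shares, the counts of calls and most genes named between genotypes are therefore also given without this library. Knockout replicate 1 stood apart in another way, with a median of 3 Top2a and Mki67 UMIs per member against 7 to 10 elsewhere. Its members held 38.3 UMIs of the cell-cycle lists per 10000 UMIs, against 84.4 to 93.9 in the other 5 libraries. Replicates 2 and 3 of each group also had fewer UMIs per macrophage than replicate 1, and replicate 3 of both groups was counted on another gene list.

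The letters that cell-cycle transcription factors are known to read were looked up in the promoters of the 2 cycle lists (RefSeq, GRCm38.p6, 250 bases before to 50 bases after the start), most of whose genes were higher in members. The list of G1/S and DNA replication genes had 38 of its 50 genes in the promoter table, and the list of G2/M and mitosis genes had 49 of its 60. On either strand, TTTGAA, the core of the CHR element bound by MuvB complexes, stood in 65.3% of the G2/M promoters, in 15.8% of the G1/S promoters and in 18.1% of all 27025 promoters. CCAAT, the letters of the NF-Y box, stood in 75.5%, 63.2% and 37.9% of them. Both TTTGAA and CCAAT stood in 57.1% of G2/M promoters, 13.2% of G1/S promoters and 7.12% of all. TTCGAA, a variant of the CHR, was in 10.2%, 2.63% and 1.57%. The E2F letters TTTGGCGC were in 15.8% of G1/S promoters, 0% of G2/M promoters and 0.537% of all, and TTTCGCGC was in 10.5%, 2.04% and 0.318%. The words were searched independently, and neighbouring matches can share letters, as the 2 E2F words do in Mcm5. These are matches of letters in a window and were not tested for binding.

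From the G1/S promoters with an E2F word, and from the G2/M promoters with both TTTGAA and CCAAT, 2 each are printed. Among genes of at least 20 CPM outside a chromosome set aside in advance, theirs showed the largest ratio between members and other macrophages. The printed letters run from 250 bases before to 30 bases after the start, 5′ to 3′ on the gene's strand. Capitals mark the E2F letters, or their reverse complements, in Clspn (chr4:126556730-126557009, plus strand) and Mcm5 (chr8:75109259-75109538, plus strand). They mark TTTGAA and CCAAT, or their reverse complements, in Cenpf (chr1:189688057-189688336, minus strand) and Ube2c (chr2:164769679-164769958, plus strand).
Clspn: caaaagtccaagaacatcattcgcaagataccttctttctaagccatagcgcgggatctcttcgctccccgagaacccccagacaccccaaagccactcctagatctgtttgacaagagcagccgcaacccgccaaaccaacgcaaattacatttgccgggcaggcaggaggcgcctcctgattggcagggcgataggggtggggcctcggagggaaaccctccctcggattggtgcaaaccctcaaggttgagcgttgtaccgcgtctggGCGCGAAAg
Mcm5: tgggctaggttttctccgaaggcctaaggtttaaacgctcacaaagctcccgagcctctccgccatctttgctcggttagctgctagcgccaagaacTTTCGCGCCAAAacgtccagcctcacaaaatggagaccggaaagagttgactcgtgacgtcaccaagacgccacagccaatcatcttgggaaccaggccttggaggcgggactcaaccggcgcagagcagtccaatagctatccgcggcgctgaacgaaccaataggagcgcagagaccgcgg
Cenpf: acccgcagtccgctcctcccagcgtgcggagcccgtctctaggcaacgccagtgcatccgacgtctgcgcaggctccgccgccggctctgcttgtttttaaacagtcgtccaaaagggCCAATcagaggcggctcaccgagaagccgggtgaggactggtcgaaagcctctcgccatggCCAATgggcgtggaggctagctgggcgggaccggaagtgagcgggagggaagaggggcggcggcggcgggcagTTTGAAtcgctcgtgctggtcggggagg
Ube2c: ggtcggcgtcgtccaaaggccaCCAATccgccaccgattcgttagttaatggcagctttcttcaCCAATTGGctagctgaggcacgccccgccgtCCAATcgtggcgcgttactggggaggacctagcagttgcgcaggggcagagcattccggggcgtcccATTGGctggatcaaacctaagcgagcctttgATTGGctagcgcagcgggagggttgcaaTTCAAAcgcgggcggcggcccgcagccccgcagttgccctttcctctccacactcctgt
In Mcm5, the words TTTCGCGC and GCGCCAAA overlapped, starting 153 and 149 bases upstream of the start. In Cenpf, the TTTGAA lay 2 bases downstream of the start and its CCAAT boxes 132 and 71 bases upstream. Ube2c held 6 CCAAT or ATTGG words, a pair of which overlapped, and a TTCAAA 29 bases upstream of the start.

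Members and non-cycling macrophages had UMIs of macrophage genes beyond C1q. Csf1r, the CSF1 receptor, was found in 96.4% of members and 90.01% of non-cycling macrophages, Cd68, a lysosomal protein of macrophages, in 96.9% and 92.2%, and Ms4a7 in 92.7% and 92.4%. Of the other macrophage markers, Aif1 was found in 95.2% and 87.1%, Adgre1 in 74.6% of both, Mrc1 in 63.9% and 66.5%, and Fcgr1 in 52.8% and 55.8%. Mitotic genes outside the rule were found far more often in members. Birc5, which encodes survivin of the chromosomal passenger complex, was found in 68.3% of members and 6.82% of non-cycling macrophages, and Cdk1, the mitotic kinase, in 59.1% and 7.27%. After each cell was thinned to 1000 UMIs the shares were 20.3% and 1.19% for Birc5 and 11.1% and 0.297% for Cdk1, while those of Csf1r were 33.5% and 41.3% and those of Ms4a7 47.2% and 61.7%. Mature neutrophils, which are neither macrophages nor dividing cells, gave the background. In 1427 barcodes with neutrophil S100 genes and no C1q UMI, the thinned share was 0.981% for Ms4a7, 7.15% for Csf1r, 1.19% for Birc5 and 0.561% for Cdk1 (2.59%, 16.9%, 3.71% and 1.68% before thinning), at a median depth of 2172 UMIs against 15707 in members and 6913 in non-cycling macrophages. Thinned shares of Birc5 and Cdk1 in non-cycling macrophages, which were chosen for 0 Top2a and Mki67 UMIs, were at or below this background, whereas their shares before thinning, in deeper cells than the neutrophils, were above it. RNA of other cells was present as well, and a UMI of Col1a1 remained after thinning in 66.0% of members, 62.5% of non-cycling macrophages and 60.2% of neutrophils. The neutrophil gene S100a8 was found in 92.9% of members and 87.1% of non-cycling macrophages, and the bone matrix gene Col1a1 in 99.2% and 95.7%. Cd3e, a T cell gene, was found in 0.765% of members, and Flt3, of dendritic cells and their progenitors, in 1.34%. Elane, a gene of granulocyte progenitors, had a UMI in 11.1% of members and 6.62% of non-cycling macrophages.

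Among themselves the members spanned a wide range of proliferation signal. Top2a and Mki67 together had a median of 7 UMIs and a maximum of 224. Both genes were detected in 392 members, Top2a alone in 49 and Mki67 alone in 82. At the threshold, 122 members had exactly 2 UMIs, next to the 400 macrophages with 1, while 184 had 3 to 9 and 217 had 10 or more. On the C1q side, 6 members had exactly 10 C1q UMIs and 9 barcodes with 9 fitted the rule otherwise. The median C1q count of a member was 95 UMIs. Across libraries 222 barcode sequences occurred more than once, 7 of them as a member and as a barcode of another library, and 0 were shared between members.

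Members held more RNA than other macrophages in every library. Their median was 22498, 12973, 13030, 25890, 15757 and 15713 UMIs, against 14675.5, 6892.5, 6011, 15053, 6846.5 and 7644 for non-cycling macrophages. A deeper cell more readily reaches 2 UMIs of any gene, so depth and the rule cannot be told apart in this difference. Where stated below, values are also given for cells of matched depth, namely those of both states whose UMIs lay within the interquartile range of the members of their library. These numbered 12, 25, 39, 18, 116 and 51 members and 8, 73, 173, 11, 98 and 72 non-cycling macrophages.

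Cycling cells made up 10.2% to 33.3% of the C1q macrophages of a library. In controls the members were 24 of 72 C1q macrophages (33.3%, 95% Wilson interval 23.5% to 44.8%), 49 of 413 (11.9%, 9.09% to 15.3%) and 79 of 775 (10.2%, 8.26% to 12.5%). In knockouts they were 38 of 122 (31.1%, 23.6% to 39.8%), 232 of 1018 (22.8%, 20.3% to 25.5%) and 101 of 546 (18.5%, 15.5% to 22.0%). The intervals cover counting error only. Replicate 1 of each group was highest, and the groups overlapped. The mean was 18.5% ± 12.9 (SD, n = 3) in controls and 24.1% ± 6.43 (SD, n = 3) in knockouts, a difference of 5.68 percentage points that was within the spread of the libraries (two-sided exact permutation test over 20 assignments, p = 0.6; adjusted over 6 shares, p = 0.9). Without knockout replicate 3 the difference was 8.505 points (exact p = 0.5). The smallest p that 3 libraries against 3 allow is 0.1.

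When each cell was thinned to 1000 UMIs, at least 1 Top2a or Mki67 UMI remained in 12.5%, 6.54%, 5.81%, 5.74%, 14.1% and 11.4% of C1q macrophages. The group means were then 8.28% ± 3.67 and 10.4% ± 4.28 (SD, n = 3 each; exact permutation p = 0.7, also without knockout replicate 3). Mature neutrophils, which do not divide, served as the background here too. Of the same 1427 barcodes, 19 (1.33%) had 2 or more Top2a and Mki67 UMIs, at median depths of 1937 to 5336 UMIs per library. At the thinned depth, 0% to 3.20% of them had at least 1.

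As a share of all kept barcodes, cycling macrophages were 0.937%, 0.583% and 0.940% in controls and 1.78%, 2.44% and 1.45% in knockouts. Here the groups did not overlap. The means were 0.820% ± 0.205 and 1.89% ± 0.505 (SD, n = 3 each), with an exact permutation p = 0.1, the smallest possible, and an adjusted p = 0.6 over the 6 shares compared. They did not overlap without knockout replicate 3 either, at a difference of 1.29 percentage points (exact permutation p = 0.1). This share combines the share of C1q macrophages among all barcodes with that of cycling cells among C1q macrophages. The former was 2.81%, 4.92% and 9.22% in controls and 5.70%, 10.7% and 7.83% in knockouts (exact permutation p = 0.4, with and without knockout replicate 3), and neither share alone separated the groups.

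**Figure D1:**
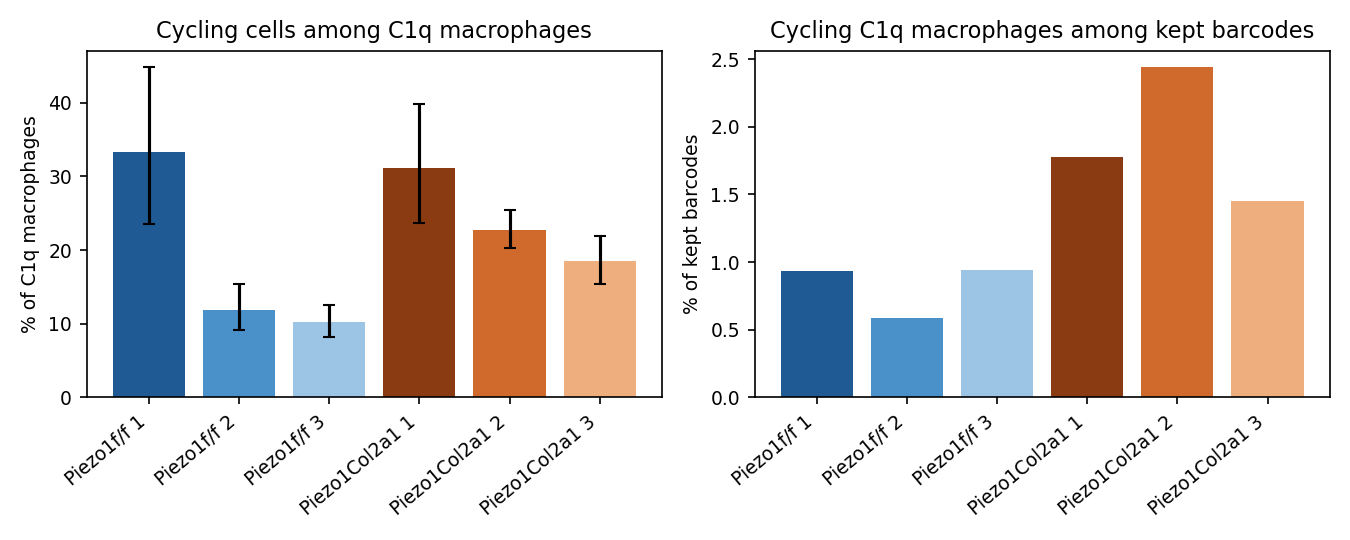
Share of cycling cells per library, in percent of C1q macrophages with 95% Wilson intervals (left) and in percent of all kept barcodes (right), for 3 Piezo1f/f and 3 Piezo1Col2a1 libraries. The groups overlap on the left, where replicate 1 of each group is highest, and do not overlap on the right, where controls reach 0.940% and knockouts start at 1.45%.

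Among macrophage-lineage cells of the callus, barcodes with 5 or more UMIs of Atp6v0d2, Ocstamp and Dcstamp had a higher cycling share in 5 of 6 libraries, at 32.8% ± 9.41 against 21.3% ± 9.64 for C1q macrophages (SD, n = 6). Both values come from UMI thresholds of the rule, which deeper barcodes pass more readily, so that they are a description with no test. They also held more UMIs, with medians of 16502.5 to 38213. After thinning to 1000 UMIs the difference was 3.12 percentage points, with 12.5% ± 4.56 against 9.35% ± 3.75 (SD, n = 6). Summed over cells, their Top2a and Mki67 UMIs per 1000000 UMIs were 335, 185, 313, 153, 294 and 274, against 474, 231, 149, 186, 319 and 238 in C1q macrophages, and thus lower in 4 of 6 libraries.

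The contrast of members with non-cycling macrophages is the rule's own, so that it is described per library, with no test. UMIs were summed over the cells of each state in each library, and the log2 ratio of CPM (plus 5 CPM) was averaged over the 6 libraries. Of 6633 genes with at least 20 CPM on average, 220 (3.32%) had a mean log2 ratio of at least 1 and were higher in all 6 libraries, and 20 (0.302%) had a mean of at most -1 and were lower in all 6. Regardless of size, 20% of genes were higher and 9.53% lower in all 6 libraries. In the cells of matched depth, 11.8% and 4.7% of the same genes were.

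Among genes past the filter, those that start and carry out DNA replication were higher in members. Of the 36 G1/S genes that passed the filter (50 were listed), all 36 were higher in all 6 libraries. A log2 ratio of 1 was passed by 34, with a median of 2.10 against 0.02 for all genes. The filter shapes these counts, since genes near 0 CPM in non-cycling macrophages, such as Rrm2, passed it through their level in members. With no filter on low values the list median was 1.88. Rrm2, the subunit of ribonucleotide reductase that makes deoxynucleotides in S phase, was at 95.5, 123, 93.0, 28.5, 97.4 and 118 CPM in members and at 1.65, 1.68, 3.03, 3.598, 5.20 and 6.56 CPM in non-cycling macrophages. The 2 states did not overlap, and knockout replicate 1 had the lowest level among members. The mean log2 ratio of Rrm2 was 3.42 ± 0.79 (SD, n = 6). Tk1, the thymidine kinase of S phase, followed at 3.27 ± 0.47, Clspn, an adaptor of the replication checkpoint, at 3.09 ± 0.28, and Rad51ap1, of homologous recombination, at 2.96 ± 0.45. The helicase subunit Mcm5 had a log2 ratio of 2.74 ± 0.60. The 2 genes under a log2 ratio of 1 were the licensing factor Cdt1, at 0.91 ± 0.43, and the histone mRNA binding protein Slbp, at 0.74 ± 0.28.

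The mitotic genes stood further from the non-cycling state. Of 41 G2/M genes that passed the filter (60 were listed), 40 passed a log2 ratio of 1 and were higher in all 6 libraries, with a median of 2.90. The filter shapes this count too, since genes such as Birc5 passed it through their level in members. With no filter on low values the list median was 2.68. Birc5 was at 147, 302, 327, 49.1, 326 and 285 CPM in members and at 3.29, 4.19, 6.99, 6.30, 19.1 and 12.6 CPM in non-cycling macrophages. Every member value lay above every non-cycling value, although knockout replicate 1 was far below the other 5. Its mean log2 ratio was 4.02 ± 0.99 (SD, n = 6). Cenpf, a kinetochore protein, had a log2 ratio of 3.99 ± 0.55, Nusap1, which bundles spindle microtubules, of 3.82 ± 0.44, and Ube2c, the ubiquitin carrier of the anaphase-promoting complex, of 3.81 ± 0.62. The exception was Pttg1, which encodes securin. It was at 20.1, 29.1, 20.4, 27.7, 25.02 and 34.3 CPM in members and at 29.6, 28.9, 31.2, 34.2, 45.0 and 36.8 CPM in non-cycling macrophages, lower in 5 of 6 libraries at a log2 ratio of -0.34 ± 0.28.

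Histone, chromatin and tubulin genes showed the same direction. Of 24 that passed the filter, 21 passed a log2 ratio of 1 and 23 were higher in all 6 libraries. The filter may bear on these counts in the same way. The replication-coupled histones Hist1h1b, Hist1h2ap and Hist1h2ae had log2 ratios of 4.40 ± 0.96, 4.37 ± 1.17 and 3.79 ± 0.72. Hist1h1c, a linker histone that is also made outside S phase, was at 0.02 ± 0.51 and was lower in 4 libraries. These messages largely lack poly(A) tails, which 3′ libraries capture. Stmn1, a microtubule destabiliser, was at 583, 992, 930, 180, 877 and 879 CPM in members and at 47.7, 57.4, 64.05, 21.6, 152 and 99.6 CPM in non-cycling macrophages. Among genes outside the lists with at least 50 CPM and 1 sign in all 6 libraries, the largest ratio was that of Pclaf, the PCNA clamp associated factor, at 4.54 ± 0.60, followed by Tmpo and Incenp, both at 2.31 ± 0.51, and Cbx5 at 1.75 ± 0.64. Pclaf (GRCm38 chr9:65890237-65903266, plus strand) reached 282, 343, 387, 91.0, 370 and 294 CPM in members and at most 15.4 CPM in non-cycling macrophages. Matching the depth of the cells left the list medians at 2.08 (G1/S), 2.84 (G2/M) and 1.56 (histones and chromatin).

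**Figure D2:**
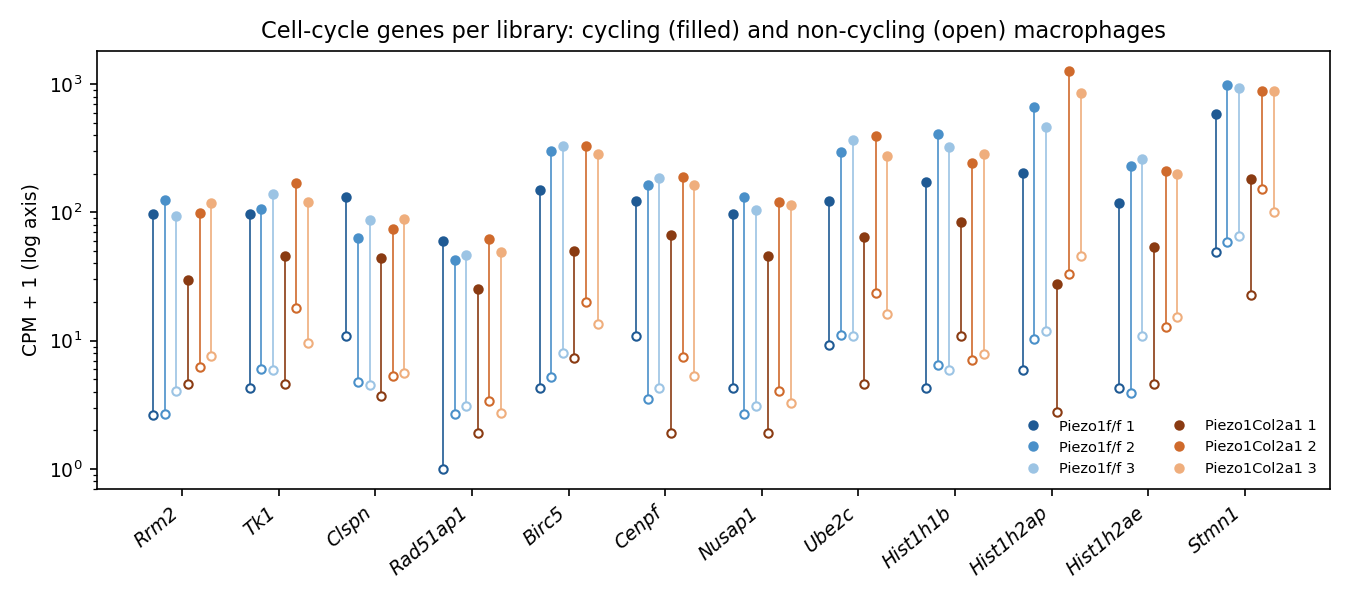
Level of the 4 genes with the largest ratio in each of 3 lists, in CPM + 1 on a log axis, in members (filled) and non-cycling macrophages (open) of each of the 6 libraries, joined by a line per library. Members lie above non-cycling macrophages of the same library for every gene, and knockout replicate 1 has the lowest member level for Rrm2, Birc5 and Stmn1.

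The entry genes of the cycle were unequal. Ccnd1, cyclin D1, was at 610, 235, 425, 106, 419 and 342 CPM in members and at 166, 64.1, 132, 40.5, 209 and 122 CPM in non-cycling macrophages, a log2 ratio of 1.504 ± 0.33 (SD, n = 6) that was positive in every library. Its partner kinase Cdk4 had a log2 ratio of 1.02 ± 0.43. Ccnd3 was at 0.39 ± 0.25, and Ccnd2 was at -0.08 ± 0.95, higher in 3 libraries and lower in 3. Nop58 and Nolc1, of ribosome assembly in the nucleolus, were at 1.33 ± 0.30 and 1.10 ± 0.54, and Myc at 0.66 ± 0.47. These were 4 of 18 genes of D cyclins and growth drivers past a log2 ratio of 1, namely Ccnd1, Nop58, Nolc1 and Cdk4, with a list median of 0.66 (0.70 at matched depth). Of 23 inhibitors and brakes of the cycle, 2 passed a log2 ratio of 1, and both act on the Rb and E2F pathway. They were Rbl1, the p107 pocket protein, at 1.70 ± 0.19, and Cdkn2c, the p18 inhibitor of CDK4 and CDK6, at 1.60 ± 0.66. The p21 inhibitor gene Cdkn1a was at 359, 453, 212, 429, 179 and 481 CPM in members and at 341, 471, 301, 461, 207 and 466 CPM in non-cycling macrophages, a log2 ratio of -0.12 ± 0.21 that overlapped between the states. The list median was -0.19, and -0.05 at matched depth, where Cdkn1a was at 0.37.

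Supply pathways differed less. Of 21 nucleotide and one-carbon synthesis genes, 6 passed a log2 ratio of 1 and 17 were higher in all 6 libraries. The 4 largest were the thymidylate kinase Dtymk at 1.55 ± 0.34, the nucleotide pool sanitiser Dctpp1 at 1.37 ± 0.53, the serine hydroxymethyltransferase Shmt2 at 1.31 ± 0.45, and Cad, the enzyme that opens pyrimidine synthesis, at 1.19 ± 0.34. The list median at matched depth was 0.68. Of 55 nuclear genes of oxidative phosphorylation, 0 passed a log2 ratio of 1, whereas 29 were higher in all 6 libraries at a median of 0.26. That count was 1 of 55 at matched depth, with a median of 0.09. For the 27 proteasome genes, 16 were higher in all 6 libraries (2 at matched depth) and the median went from 0.26 to 0.13. The 18 glycolysis genes had a median of -0.08 (-0.16 at matched depth), and the 9 cholesterol synthesis genes of -0.05 (0.02).

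Macrophage genes lay on the lower side, less far from 0 than the cycle genes. Of 17 genes of the CSF1 receptor axis and myeloid transcription factors, 0 passed a log2 ratio of 1 in size, 9 were lower in all 6 libraries and 1 was higher. The latter was Spi1, which encodes the macrophage factor PU.1, at 0.07 ± 0.07. Csf1r was at 695, 350, 307, 485, 354 and 347 CPM in members and at 814, 512, 439, 576, 749 and 478 CPM in non-cycling macrophages, a log2 ratio of -0.51 ± 0.31. At matched depth Csf1r was at -0.06 ± 0.47. Cebpa, of myeloid differentiation, was at -0.91 ± 0.43, and at -0.65 ± 0.26 at matched depth, lower in all 6 libraries in both. Among phagocytic and lysosomal genes, 2 of 32 passed a log2 ratio of -1, the Fc receptor Fcgr4 at -1.08 ± 0.46 and the endotoxin co-receptor Cd14 at -1.01 ± 0.55. At matched depth, 15 of the 32 were lower in all 6 libraries, as against 9 among all cells, and the list medians were -0.40 and -0.46.

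Several abundant macrophage products stayed lower at matched depth. Lyz2, lysozyme, was at 6011, 7461, 4638, 7316, 5359 and 5225 CPM in members and at 9794, 12063, 12587, 9182, 9875 and 10288 CPM in non-cycling macrophages. The states did not overlap, and the log2 ratio was -0.84 ± 0.37 (SD, n = 6), or -1.01 ± 0.42 at matched depth. Apoe, the lipid carrier apolipoprotein E, was at 12074, 6723, 6220, 8373, 4744 and 5920 CPM in members and at 19496, 13909, 17423, 10228, 12642 and 14486 CPM in non-cycling macrophages. It was lower in members of every library, although the ranges of the states overlapped, with log2 ratios of -1.04 ± 0.47 and, at matched depth, of -0.68 ± 0.42. The Fc receptor Fcgr3 was at -0.97 ± 0.59 and -0.90 ± 0.50, and the interferon-induced Rsad2 at -1.67 ± 0.98 and -1.22 ± 0.39. Hmox1, which degrades haem, was lower in 5 of 6 libraries at -1.04 ± 0.89, and in all 6 at matched depth at -0.97 ± 0.57. Of the same genes outside the lists as for Pclaf, Slfn5, an interferon-induced gene, was lowest at -1.68 ± 0.66 (-1.64 ± 1.21 at matched depth).

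Antigen presentation did not keep its difference when depth was matched. All 9 genes of MHC class II and co-stimulation that passed the filter had negative means, 7 of them were lower in all 6 libraries, and the list median was -0.85, the lowest of the macrophage and pathway lists. H2-Eb1, a class II beta chain, was at 1059, 946, 1071, 161, 386 and 626 CPM in members and at 2216, 1850, 1467, 425, 1205 and 1029 CPM in non-cycling macrophages, a log2 ratio of -1.03 ± 0.43. The other members were H2-Aa at -0.97 ± 0.37, H2-Ab1 at -0.95 ± 0.30, the invariant chain Cd74 at -0.90 ± 0.33, Cd83 at -0.85 ± 0.41, H2-DMa at -0.82 ± 0.24, Ctss at -0.81 ± 0.53, H2-DMb1 at -0.67 ± 0.24 and Cd86 at -0.65 ± 0.58. In cells of matched depth the list median was 0.09, H2-Eb1 was at 0.09 ± 1.11, and 0 of the 9 genes were lower in all 6 libraries. The scavenger and resident list moved in the same way, from a median of -0.73 to -0.20, and its Selenop, which encodes a selenium carrier, from -1.12 ± 0.77 to -0.40 ± 1.03. In all, 169 of the 220 genes on the higher side also passed at matched depth, but only 3 of the 20 on the lower side. At matched depth, 197 genes passed on the higher side and 14 on the lower. The matched cells were few, down to 8 non-cycling macrophages in control replicate 1, and the SD of H2-Eb1 was larger. Depth and the smaller number of cells cannot be told apart in the calls that were lost.

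The other lists had few genes past a log2 ratio of 1 in size. Of 17 classical monocyte genes 2 did, Ly6c2 at -1.40 ± 1.59 and Ms4a4c at -1.30 ± 0.53. Of 22 inflammatory cytokines and chemokines 2 did, Ccl6 at -1.62 ± 0.73 and Il1b, interleukin 1 beta, at -1.24 ± 0.96. Of 15 interferon response genes 2 did, Rsad2 and Ifit1, the latter at -1.28 ± 0.73, and of 18 lipid handling genes 1 did, Apoe. At matched depth Ly6c2 was at -1.31, Ccl6 at -1.18, Il1b at -0.38 and Ifit1 at -1.24, and the list medians were -0.52 (monocyte), -0.10 (inflammatory), -0.45 (interferon) and -0.48 (lipid). Among 22 immediate early genes, which respond to dissociation as well as to signals, 14 were lower in all 6 libraries and 0 passed a log2 ratio of -1. Their median was -0.54, and -0.31 at matched depth. The 14 secreted growth factors had a median of -0.45 (-0.26 at matched depth), with Bmp2 at -0.90 ± 1.10 and Pdgfc at -0.88 ± 0.40. Of 15 osteoclast lineage genes, Jdp2, a transcription factor of osteoclast differentiation, was higher at 1.22 ± 0.47 and 1.17 at matched depth. Jdp2 was at 173, 114, 170, 261, 154 and 116 CPM in members and at 62.5, 71.2, 58.0, 122, 37.5 and 63.1 CPM in non-cycling macrophages. The osteoclast enzyme genes Acp5 and Ctsk were at 0.28 ± 0.28 and -0.40 ± 0.69.

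**Figure D3:**
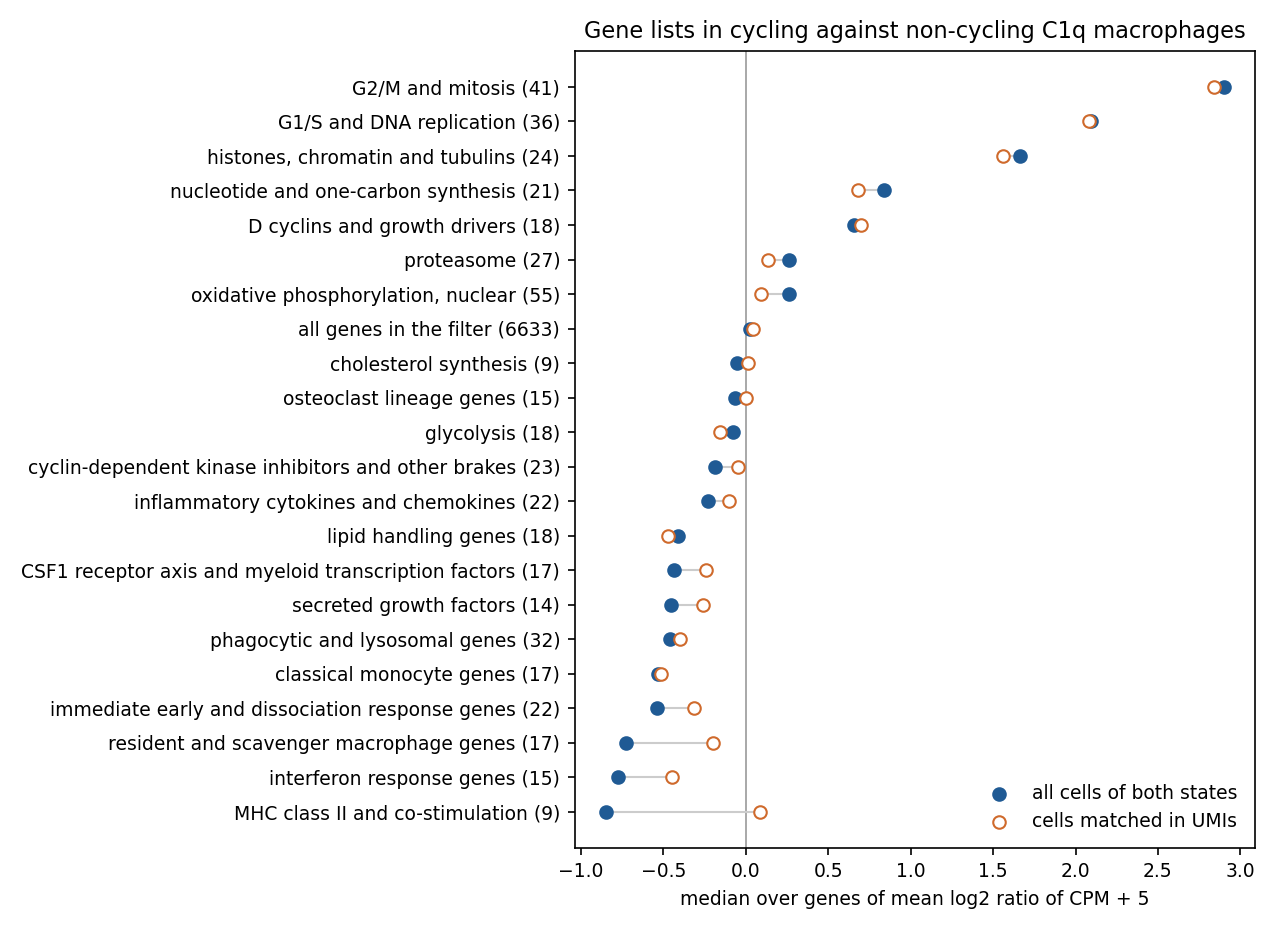
Median over the genes of each list (number of genes in brackets) of the mean log2 ratio of CPM + 5, members over non-cycling macrophages, for all cells (filled) and for cells matched in UMIs (open). The cycle lists keep medians of 2.08 or more at matched depth, whereas the MHC class II list goes from -0.85 to 0.09.

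RNA of other cell types did not run evenly through these libraries. Summed over its 18 genes, the stromal, cartilage and bone list was at 24497, 13396, 15048, 27321, 25440 and 22702 CPM in members and at 25085, 5542, 12572, 47310, 16440 and 37240 CPM in non-cycling macrophages. The neutrophil list of 12 genes was at 92.2, 1618, 2217, 332, 8123 and 7716 CPM in members and at 98.7, 3013, 995, 1526, 4386 and 3533 CPM in non-cycling macrophages. Red cell genes had a median log2 ratio of 1.84 over the 4 that passed the filter, and 1.04 at matched depth. This median was 0.62 without the highest doublet scores and -0.24 without barcodes holding marker UMIs of other cells. The endothelial list was at a median of -0.86. Of the T and NK cell list and of the mast cell list, 0 genes passed the filter. Barcodes with clear marker UMIs of another cell type made up 17.0% of the members (89 of 523), between 8.33% and 20.3% per library, against 5% to 15.8% of non-cycling macrophages, and 80 members had high doublet scores. For 136 genes, those of the lists past a log2 ratio of 1 in size with 1 sign in all 6 libraries and those picked outside the lists, leaving out of both states either the barcodes with marker UMIs or those of high doublet score reversed 0 log2 ratios and moved each by no more than its SD over the libraries. These genes were picked from the same data for large ratios of 1 sign, so that few could reverse. Their values say nothing of genes with smaller ratios. When the barcodes with marker UMIs were left out, which was decided on with the data in view, the number of genes on the lower side went from 20 to 50.

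The signal varied with the strength of proliferation. Cells were split by their Top2a and Mki67 UMIs, a description in which the rule genes set the classes and depth rises with them, from a median of 6913 UMIs at 0 to 8862 at 1, 12533.5 at 2, 13389.5 at 3 to 9 and 20104 at 10 or more. The smallest class of a library held 4 cells. Stmn1 averaged 73.7, 149, 260, 535 and 1040 CPM over the 6 libraries in these 5 classes, and Pclaf 7.36, 12.9, 74.8, 199 and 445 CPM. The macrophages with a single UMI therefore lay nearer to the non-cycling cells than to the members in both genes. Lyz2 averaged 10632 ± 1368, 10868 ± 1959, 8423 ± 3101, 7134 ± 2079 and 4830.2 ± 1249 CPM (SD, n = 6). Members with exactly 2 UMIs had an MHC class II list sum of 11004 ± 5577 CPM against 11946 ± 3918 CPM at 0, whereas those with 3 to 9 were at 5699 ± 2085 CPM. The mean at 2 UMIs joined unlike groups, with 17874, 12326 and 17152.5 CPM in controls and 6437, 5832 and 6401 CPM in knockouts. At 0 UMIs the list was at 17305, 15035.5 and 12197 CPM in controls and 6128, 10975 and 10038.5 CPM in knockouts. Apoe in the class with 2 UMIs rested on control replicate 1, with 37869 CPM from 4 cells, while the other 5 libraries lay between 6920 and 12836 CPM.

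**Figure D4:**
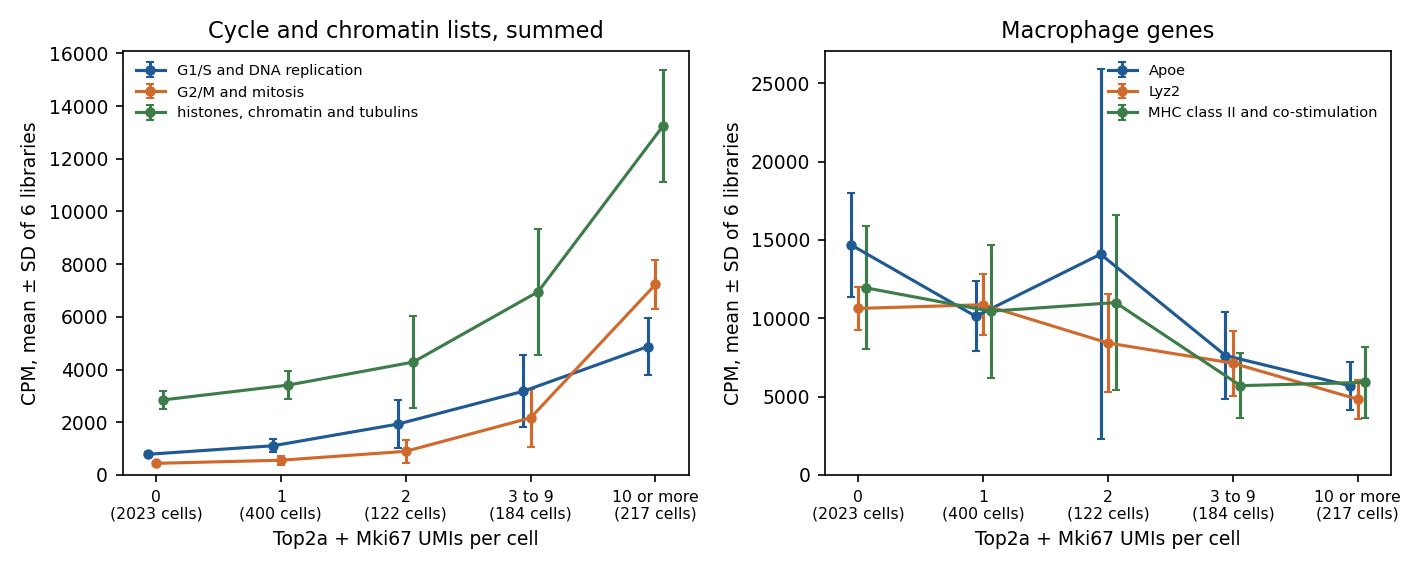
CPM by the number of Top2a and Mki67 UMIs per cell (mean ± SD of 6 libraries), for 3 lists of cycle and chromatin genes, summed (left), and for Apoe, Lyz2 and the summed MHC class II list (right). The cycle lists climb in each step, and the G2/M list exceeds the G1/S list only at 10 or more UMIs, while the wide bar of Apoe at 2 UMIs comes from control replicate 1.

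The phase of the members was read from the UMIs of the 2 cycle lists, which leave out Top2a and Mki67. Of the list UMIs, G1/S genes held 53.5%, 41.1%, 44.4%, 50.3%, 40.8% and 45.6% in members, against 61.4% to 66.7% in non-cycling macrophages. Per cell, the G1/S part had a median of 54.5% and quartiles of 28.7% and 73.1%. It exceeded that of G2/M in 278 members and was smaller in 236, with 9 equal and 103 within 40% to 60%, so that the split below is a range and not a pair of types. Since both rule genes peak late in the cycle, the level is shaped by the rule. The genotypes did not differ beyond the spread of their libraries, at 46.3% ± 6.42 in controls and 45.6% ± 4.75 in knockouts (SD, n = 3 each; exact permutation p = 0.9, adjusted 0.9; without knockout replicate 3, a difference of -0.75 percentage points).

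Members with mostly G2/M UMIs were then set against those with mostly G1/S UMIs in each library (8 and 15, 23 and 23, 31 and 47, 11 and 27, 120 and 109, and 43 and 57 cells). Of 6753 genes, 5.35% were higher and 4.49% lower in all 6 libraries, and 1.61% and 0.355% also passed a log2 ratio of 1 in size. Both cycle lists are the split's own genes and are left aside. Ccnd1 was lower in the G2/M cells of every library, at log2 ratios of -2.57, -3.05, -1.02, -1.15, -0.75 and -0.87 and mean levels of 182 and 509 CPM. Cdk6, a partner of the D cyclins, was at -0.94 ± 0.50, lower in all 6 libraries. On the other side, the CDK4 and CDK6 inhibitors Cdkn2c and Cdkn2d were higher in all 6 libraries, at 1.89 ± 0.84 and 1.80 ± 0.54. H2afx, the histone variant phosphorylated at DNA breaks, was at 1.499 ± 0.34, the tubulin Tubb4b at 1.27 ± 0.24 and the chromatin protein Hmgb2 at 0.97 ± 0.23.

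MHC class II genes also varied between these members. H2-Ab1 was lower in the G2/M cells of all 6 libraries, at log2 ratios of -0.73, -1.27, -0.53, -2.55, -1.05 and -0.95, and Cd74 at -1.06 ± 0.55. Of the 9 genes of the list, 4 passed a log2 ratio of -1 with 1 sign in all 6 libraries. The rule gene C1qa was at -0.11 ± 0.31, higher in 3 libraries and lower in 3. The collagen gene Col1a1 moved with this split at 1.19 ± 0.89, higher in all 6 libraries, and the stromal list had a median of 0.91. The G2/M cells were also the deeper ones in 4 of 6 libraries, with medians of 22140, 14986, 13712, 33329, 19393 and 14630 UMIs against 23496, 12816, 12365, 25699, 13813 and 15916. The part of either in these differences was not tested.

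**Figure D5:**
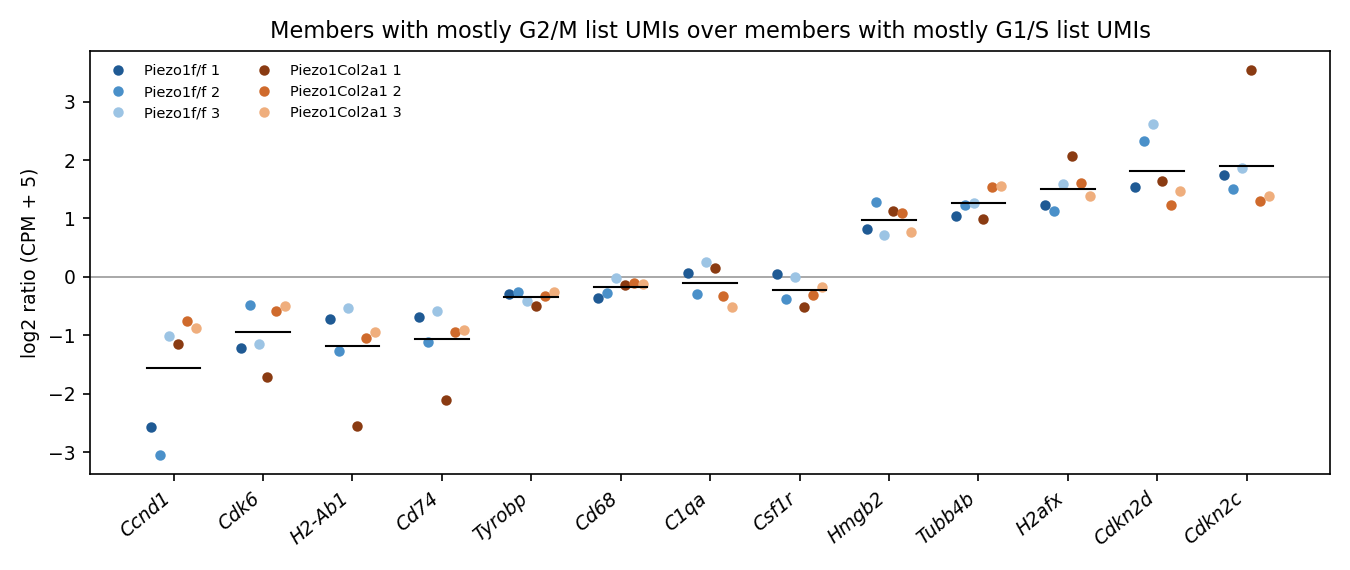
Log2 ratio of CPM + 5 in members with mostly G2/M list UMIs over members with mostly G1/S list UMIs, for 13 genes outside both cycle lists. Each point is a library and each bar the mean of 6, with Ccnd1, Cdk6, H2-Ab1, Cd74 and Tyrobp below 0 and Hmgb2, Tubb4b, H2afx, Cdkn2d and Cdkn2c above 0 in all 6 libraries.

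The genotypes were compared in the members alone, from their summed UMIs (edgeR quasi-likelihood test). The deleted gene Piezo1, a mechanically gated channel, was at 72.1, 44.3 and 57.6 CPM in control members and at 62.4, 40.6 and 49.0 CPM in knockout members, a log2 difference of -0.17 ± 0.28 (SE; unadjusted p = 0.552 in edgeR's test), and -0.18 without knockout replicate 3. The groups overlapped. Macrophages are not the target of the Cre, so that this value does not check the knockout. Of 9196 genes, 0 (0%) passed an adjusted p of 0.05 in edgeR, 136 had an unadjusted p under 0.05, and DESeq2 called 0 as well, with 90 under 0.05. Without knockout replicate 3, edgeR called 0, with 91 under 0.05. Other libraries moved this count more, to 589 without knockout replicate 1 and 316 without control replicate 3, with 0 called in both.

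The genes of smallest p are given as values. Cgnl1, a junction protein, was at 5.03, 8.31 and 3.54 CPM in controls and at 33.004, 17.7 and 19.7 CPM in knockouts (log2 difference 2.08 ± 0.44, SE), and Ptgis, prostacyclin synthase, at 13.4, 15.2 and 9.75 CPM against 26.8, 54.2 and 105 CPM. Both rest on few UMIs. Cdo1 followed at 3.37 ± 0.80. On the lower side were Bend4 at -1.39 ± 0.33, the mitochondrial mt-Atp8 at -1.20 ± 0.32 and the immunoglobulin gene Igha at -6.72 ± 1.91, of which 1325 CPM came from control replicate 3 alone. The adjusted p of each of these 6 genes was 1.00 in edgeR. Their log2 differences without knockout replicate 3 were 2.15 (Cgnl1), 1.76 (Ptgis), 3.53 (Cdo1), -1.55 (Bend4), -1.46 (mt-Atp8) and -6.32 (Igha), each again with an adjusted p of 1.00 in edgeR. In non-cycling macrophages the genotypes also did not overlap for Ptgis, at 21.4, 7.96 and 11.4 CPM against 75.6, 42.9 and 147 CPM. Nor did they for mt-Atp8, at 192, 228 and 212 CPM against 89.9, 65.2 and 125 CPM, or for Igha. Cgnl1, Cdo1 and Bend4 overlapped there. For groups of members that do not overlap, the background was 504 genes of 9196 (5.48%). Of the 12 genes of MHC class II and co-stimulation tested, 4 were among them, namely H2-Ab1, H2-Eb1, H2-Aa and Cd74. H2-Ab1 was at 1160, 1140 and 955 CPM in control members and 279, 375 and 634 CPM in knockout members, a log2 difference of -1.27 ± 0.39 (SE; adjusted p = 1.00 in edgeR's test). H2-Eb1 and H2-Aa were at -1.32 ± 0.50 and -1.06 ± 0.42. Without knockout replicate 3 the values were -1.69, -1.84 and -1.46 for H2-Ab1, H2-Eb1 and H2-Aa (adjusted p = 1.00 each in edgeR). In non-cycling macrophages H2-Ab1 was at 2458, 2024 and 1454 CPM in controls and 577, 1025 and 1050 CPM in knockouts. H2-Ab1 and H2-Eb1 thus did not overlap there either, so that these differences were not confined to members, whereas Cd74 overlapped. Over the 9 genes of at least 20 CPM the list median in members was -0.74, with 3 at an unadjusted p under 0.05 and 0 called. In the same libraries the neutrophil list had a median log2 difference of 2.15, with S100a8 at 33.5, 769 and 827 CPM in controls and 147, 3242 and 2840 CPM in knockouts. Some stromal genes also had higher means in knockout members, with Sparc at 3236, 2337 and 2575 CPM in controls and 5334, 5289 and 4530 CPM in knockouts. Col1a2 did not overlap either, at means of 2353 and 5575 CPM, and Col1a1 was at 2480 and 5602 CPM with overlap, while the median of the stromal list was 0.06. Among dendritic cell genes, Itgax had means of 44.3 CPM in controls and 17.6 CPM in knockouts without overlap. Flt3 (3.55 and 0.647 CPM) and Zbtb46 (1.44 and 2.05 CPM) overlapped. In members with 10 or more Top2a and Mki67 UMIs, the dendritic list was at 63.8, 72.6 and 49.9 CPM in controls. In knockouts that list was at 6.98, 18.6 and 22.0 CPM. The part of neutrophil, stromal or dendritic cell RNA in other differences was not tested. The G1/S and G2/M lists had medians of -0.27 and -0.20. In edgeR, 2 of 36 and 1 of 41 of their genes had an unadjusted p under 0.05, and 0 were called. Some replication genes were lower in knockouts without overlap, with Pcna at means of 428 and 241 CPM, Mcm6 at 177 and 122 CPM and Rrm1 at 187 and 129 CPM. Others overlapped, such as Mcm3 (153 and 129 CPM) and Mcm5 (126 and 99.4 CPM). The number of such genes was not set against the background. The knockout means include replicate 1, whose members held 38.3 UMIs of the cycle lists per 10000 UMIs, the lowest of all libraries. Its part in these differences was not tested.

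Whether the difference between members and non-cycling macrophages depended on genotype was tested with the library as a block. Of 10586 genes, 1 (0.00945%) passed. Mmp3, a matrix metalloproteinase made mainly by stromal cells, had an interaction of -5.71 ± 0.52 on the log2 scale (SE; adjusted p = 0.00844 in edgeR). It was at 1.68, 0 and 204 CPM in control members and 1.65, 0.838 and 65.0 CPM in control non-cycling macrophages, and at 27.7, 0 and 0.563 CPM in knockout members and 534, 0 and 1.14 CPM in knockout non-cycling macrophages. The value thus rested on control replicate 3 and knockout replicate 1. Without barcodes holding marker UMIs of other cells it was -0.15 (adjusted p = 1). Without control replicate 3 it was -3.41 and without knockout replicate 1 it was -2.40, with an adjusted p of 1 in both. Without knockout replicate 3 it was -5.81 (adjusted p = 0.0139). DESeq2 did not call Mmp3, at -3.11 (adjusted p = 1.00). Matn3, a cartilage matrix gene, was at -3.47 ± 0.47 and the monocyte chemokine gene Ccl2 at -1.56 ± 0.22, both with an adjusted p of 0.0669 in edgeR. Without knockout replicate 3 they were at -3.74 and -1.73 (adjusted p = 0.293 and 0.172), and without barcodes holding marker UMIs of other cells at -1.38 and -0.45 (adjusted p = 1 for both). At matched depth they were at 0.23 and -0.84, with an adjusted p of 0.989 for Matn3 and 0.936 for Ccl2. Both were called by DESeq2, at -3.26 and -1.55 (adjusted p = 1.5e-05 and 0.000499), and by edgeR without replicate 3 of both groups, at -4.01 and -1.83 (adjusted p = 0.0257 and 0.0433). Matn3 was also called by edgeR without knockout replicate 2, at -3.66 (adjusted p = 0.00605). Ccl2 was higher in members than in non-cycling macrophages in all 3 controls (132, 465 and 291 against 51.0, 221 and 153 CPM) and lower in all 3 knockouts (128, 74.3 and 126 against 209, 111 and 140 CPM). On the positive side the smallest p values belonged to Mme at 4.50 ± 0.85, Igfbp5 at 3.39 ± 0.64 and Lat2 at 0.86 ± 0.20, with adjusted p of 0.227, 0.227 and 0.546 in edgeR. Igfbp5 was called by DESeq2, at 3.30 (adjusted p = 0.000682), and by edgeR without knockout replicate 2, at 4.16 (adjusted p = 0.0312). With no filter on low counts, edgeR also called Matn3, Ccl2, Mme and Igfbp5.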

How the data were processed

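The authors aligned the 3′ libraries and counted UMIs with Cell Ranger, 6.1.1 for replicate 1 and 6.1.2 for replicates 2 and 3 per the file headers, on GRCm38 per the labels, which also name Seurat. The deposited tables hold raw UMI counts per gene and filtered barcode, not normalized. Gene identifiers shared by all 6 libraries (52081) held at least 97.8% of the UMIs.

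The members, lists and tests were chosen with earlier results of these data known. UMIs were summed per library and state. Ratios used CPM plus 5 and genes of at least 20 CPM. For genotypes, the quasi-likelihood F test of edgeR 4.0.16 was used with filterByExpr, TMM and Benjamini-Hochberg adjustment (R 4.3.3), with DESeq2 1.42.0 as an alternative. Shares were compared with exact permutation tests (scipy 1.17.1). Since the samples are said to be separate mice only in the methods, p-values measure the spread between libraries. Doublets were scored with Scrublet (scanpy 1.11.5) and not removed, except in an alternative. Thresholds, normalization, filters, pseudocounts, depth and left-out libraries were varied. The edgeR fits were also run on simulated counts with known changes. Gene positions are from GENCODE M21.

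Named genes are the rule genes, Piezo1 and sex genes, up to 4 members of each list with the largest ratios (all members of short lists described), the 8 highest and 8 lowest outside the lists among genes of at least 50 CPM and 1 sign in all 6 libraries, and for genotype and interaction the genes past the threshold or the 3 of smallest p in each direction. Genes named for the classes, phases and matched depth, and single list members beside these, were chosen after their values were seen.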

Additional observations from a re-analysis of the deposited data

Results flagged for a closer look

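The interaction of genotype with cell state in Mmp3, -5.71 on the log2 scale, was flagged because the difference between members and non-cycling macrophages differed between the genotypes by the test of that difference itself. The level was above 20 CPM only in control replicate 3 and knockout replicate 1, and the value was 0.59 in cells of matched depth.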

How the results depend on the processing

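The share of cycling cells kept its direction under all alternatives run, with differences of 1.58 percentage points with at least 3 Top2a and Mki67 UMIs and of 1.55 to 13.1 points when a library was left out (13.1 without control replicate 1, 1.55 without control replicate 3). The G1/S part reversed, to 0.959 points with at least 20 C1q UMIs, and lay between -3.35 and 2.84 when a library was left out (2.84 without control replicate 1, 1.64 without knockout replicate 2). Genotype calls in members stayed at 0 except with no filter on low counts (40 higher, 27 lower). Interaction calls (0 higher, 1 lower) were 25 and 80 with no filter, 1 and 9 by DESeq2, 2 and 2 at matched depth, 4 and 9 without replicate 3 of both groups, and 0 to 2 and 0 to 16 when a library was left out (16 without knockout replicate 2, 0 without control replicate 3 or knockout replicate 1); 0 were lower without barcodes holding other cells' markers, an alternative chosen after seeing the data. Genes higher in members (220) were 376 with no filter, 52 at 100 CPM or more, and 208 to 266 when a library was left out. Genes lower (20) were 13 with at least 20 C1q UMIs, 60 with at least 3 Top2a and Mki67 UMIs, 32 without high Scrublet scores, 50 without other cells' markers, 40 and 8 with pseudocounts of 1 and 20 CPM, 9 at 100 CPM or more, 42 with TMM, and 21 to 57 when a library was left out (57 without knockout replicate 1). H2-Eb1 reversed to 0.0873, Mmp3 to 0.590 and Matn3 to 0.232 at matched depth. The cause was not tested, except that filters change how many genes are counted. Leaving out a library also asks for 1 sign among fewer libraries, which genes higher or lower in members pass more readily. Pairing by the shared replicate numbers was not established (correlations of deviations 0.322, -0.0941 and 0.152). With the replicate number as a block, 0 genes were called (161 at an unadjusted p under 0.05), and the exact p was 0.5 for the share (5.68 points) and 0.75 for the G1/S part (-0.739 points). The shares rest on UMI thresholds, which deeper barcodes pass more readily, and members held more UMIs than other macrophages. Thinning applied to the Top2a and Mki67 count only, while the limits on C1q, osteoclast genes and Cdh5 stayed at full depth. The part of depth in the shares was not tested.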
